A study of Mus musculus with 45 samples.

Results

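Aminoacyl-tRNA synthetases, the enzymes that load each amino acid onto its tRNA, were followed across numbered tissue sections of early mouse embryos together with 3 scaffold proteins that hold several of them in 1 complex. The members were picked out by gene symbol alone, with no measured value in the rule, but the group was chosen with earlier results of these data known. This gave 39 genes of the 15997 with a row in any of 3 expression tables. Of these, 19 were cytosolic enzymes or enzyme subunits, 17 were mitochondrial enzymes whose symbols end in 2, and 3 were the scaffolds Aimp1, Aimp2 and Eef1e1. There were 36 members among the 10176 genes listed for E5.25, 39 among 13060 for E5.5 and 38 among 13618 for E5.75, and 35 members had a row in every table. Fars2, Nars2 and Pars2 had no row at E5.25 and Tars2 had none of its own at E5.75, where it appeared only in a row joined with Ecm1 (levels 2.06 to 4.45, change 1.02 ± 0.58, limma, adjusted p = 0.208). Aars, the cytosolic alanine enzyme, appeared only in a row joined with its neighbour Exosc6 and was therefore not counted.

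Mouse embryos of 3 ages, embryonic days E5.25, E5.5 and later E5.75, were freed from the decidua without any treatment and frozen. Numbered sections were taken by laser capture microdissection, in which a laser cuts out chosen tissue under a microscope, and their RNA was sequenced with Smart-seq2, a protocol for very small amounts of RNA. The strain is not given in the sources used here. The E5.25 group had 7 sections (1 to 4 and 6 to 8), the E5.5 group 9 section numbers (1, 2 and 4 to 10) and the E5.75 group 17 sections (1 to 8, 10 to 12 and 14 to 19) plus 2 libraries of sections 6 and 7 marked VE, which the labels do not expand and which usually stands for visceral endoderm. Sections 9 and 13 at E5.75 are among the 45 labelled samples but have no column in the E5.75 expression table. The labels give stage and section number and tell no embryos of a stage apart. The sections of a stage are therefore taken as coming from 1 embryo. Each p-value compares sections with one another and is too small as a statement about embryos. Since no label places section 1 at the upper or lower end of the embryo, directions are given by section number.

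Each cell needs a synthetase for every amino acid in the cytosol and a second set, encoded by other nuclear genes, for translation inside mitochondria. Gars and Kars, the enzymes for glycine and lysine, serve both compartments from 1 gene, and Qars is the cytosolic glutamine enzyme. In the cytosol, Eprs, Lars, Iars, Mars, Qars, Kars, Rars and Dars form the multisynthetase complex around Aimp1, Aimp2 and Eef1e1, while enzymes such as Nars, Tars, Gars and the phenylalanine enzyme, built of Farsa and Farsb subunits, act outside it. Transcription of many cytosolic synthetase genes is known to rise with Atf4 when amino acids run short.

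Levels are given as log2(FPKM + 1), where FPKM is a fragment count scaled by transcript length and library total, so that genes of different length can be compared. The number of genes with an FPKM of at least 1 ranged from 2046 to 6461 over the sections of E5.25, from 2288 to 6467 at E5.5 and from 3211 to 8217 at E5.75, and the lowest-numbered sections were among the poorest. Section 1 of E5.5 listed even Gapdh, which every cell uses, at 0, so such a value need not mean that a gene was silent. In that library 69.8% of all FPKM belonged to Rn45s, the ribosomal RNA precursor, and in section 1 of E5.75 it was 52.8%. At E5.75, 7 of 9 epiblast markers fell with section number, while 6 of 9 markers of extraembryonic ectoderm and 6 of 7 of ectoplacental cone rose, as did 3 of 5 tested markers of decidua. The summed FPKM of the epiblast list at E5.75 was 198.6 to 766.3 in the 8 lower-numbered sections and 47.8 to 217.7 in the other 9, and that of the extraembryonic ectoderm list 0 to 7.57 and 153.7 to 390.1. The part of tissue composition, of detection and of ribosomal RNA in the results on the synthetases was not tested apart from the alternatives given with each result, and in such bulk sections fewer cells of a type and less RNA per cell cannot be told apart.

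**Figure D1:**
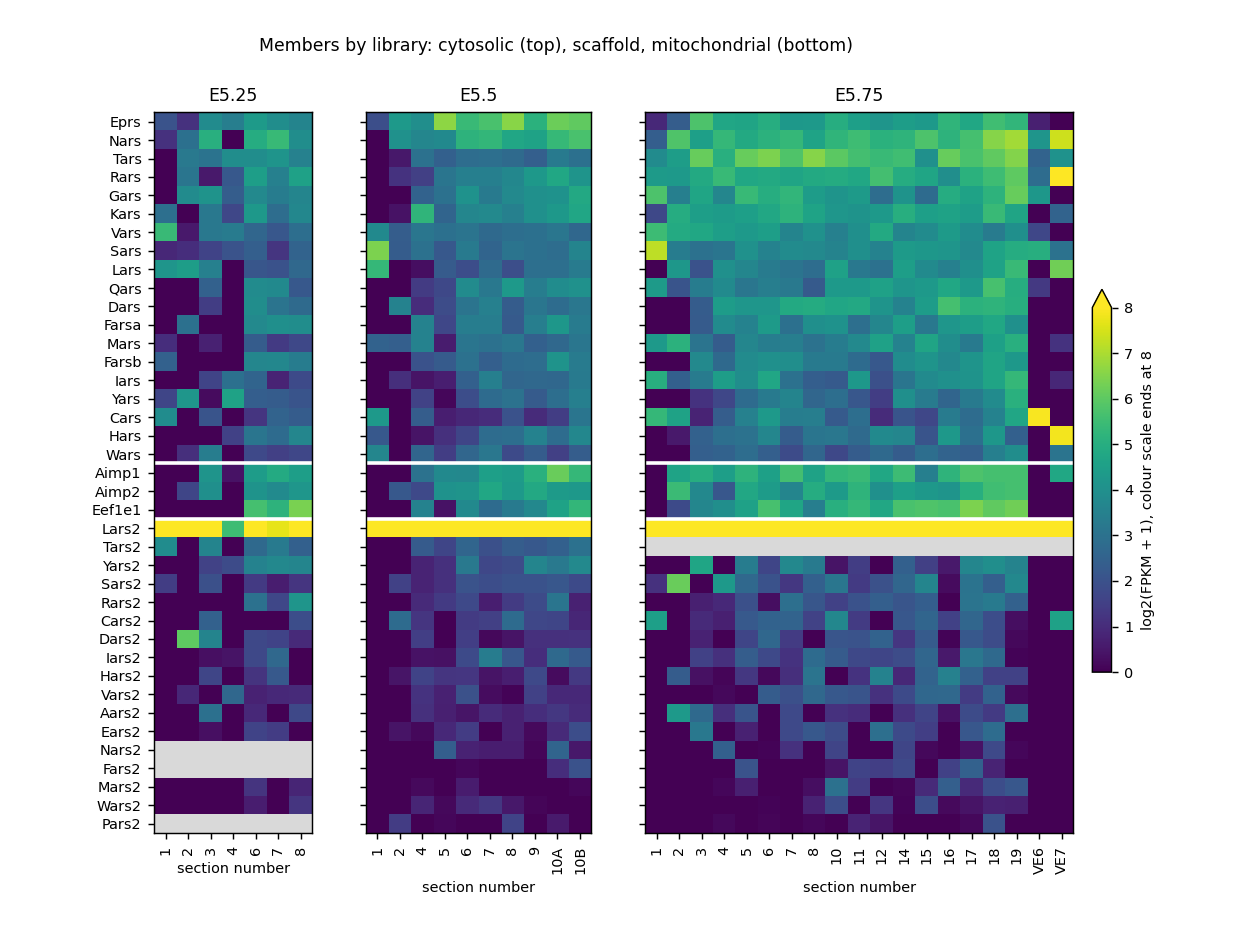
Level of every member in every library as colour, in log2(FPKM + 1), with 1 row per gene and 1 column per section or VE library, for E5.25, E5.5 and E5.75. The colour scale ends at 8, which Lars2 exceeds in all libraries but sections 4 and 7 of E5.25. Many cytosolic and scaffold rows are at 0 in sections 1 and 2, and grey marks a gene with no row in that table.

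Lars2, the mitochondrial leucine enzyme (chromosome 9, 123366927 to 123462675, mm10), stood far above every other member. At E5.25 its level was 15.84 in section 1, 15.31 in section 2, 13.08 in section 3, 5.502 in section 4, 8.83 in section 6, 7.69 in section 7 and 9.70 in section 8. At E5.5 it was 15.81, 13.58, 11.56, 12.34, 10.41, 10.10, 10.80 and 9.95 in sections 1, 2 and 4 to 9, and 9.05 and 8.93 in the 2 parts of section 10. At E5.75 the lowest of 17 sections was 10.04 in section 19, the median 12.01 and the highest 17.04 in section 1. The 3 lowest-numbered sections of E5.25 lay above the other 4, section 1 was highest at E5.5 and E5.75, and no section had another member above Lars2. The gap to the next highest member was 0.88 to 10.43 on the log2 scale, and Lars2 alone made up 33.8% to 99.8% of the summed FPKM of all members in the sections.

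Along the section numbers of E5.25 Lars2 fell by 7.43 ± 1.62 on the log2 scale (fitted change from the first to the last section ± standard error, 7 sections; limma, Benjamini-Hochberg adjusted p = 0.0442) and at E5.5 it fell by 5.755 ± 0.68 (9 sections, limma, adjusted p = 0.000449). It was the only member that fell at those stages, where 0.028% and 2.61% of all genes tested fell. At E5.75 its fitted change was -1.52 ± 0.97 (17 sections, limma, adjusted p = 0.266). The E5.25 call ended without section 1, where the change was -5.21 (limma, adjusted p = 0.0781), and the E5.75 change was -0.13 without section 1. With a spline in place of the line the E5.75 change was -4.60 and passed (limma, adjusted p = 0.00837). A direct comparison of slopes between stages gave no call for Lars2: the difference was 1.67 ± 2.35 for E5.5 minus E5.25, 4.23 ± 2.01 for E5.75 minus E5.5 and 5.91 ± 2.08 for E5.75 minus E5.25 (limma, adjusted p = 0.9998, 0.371 and 0.176).

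The level of Lars2 followed that of Rn45s section by section. Rn45s was 15.69, 15.31, 13.30, 9.63, 10.65, 9.84 and 11.17 over the same 7 sections of E5.25, and fell by 5.40 ± 0.91 (limma, adjusted p = 0.0307). At E5.5 it fell by 5.45 ± 0.56 (limma, adjusted p = 0.000251), and for E5.75 its fitted change was -1.46 ± 0.75 (limma, adjusted p = 0.165). Across the sections of a stage, taken as 1 embryo, Pearson's r between Lars2 and Rn45s was 0.98 at E5.25 (n = 7), 0.997 at E5.5 (n = 9) and 0.91 at E5.75 (n = 17), with Spearman's rho 1, 1 and 0.81. Without sections 1 and 2 the r values were 0.97, 0.99 and 0.82. With the Rn45s level as a covariate the fitted change of Lars2 became 2.35, 0.028 and 0.18 in the order of the stages, and none passed. With that covariate no gene at all passed at E5.25 or E5.5.

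**Figure D2:**
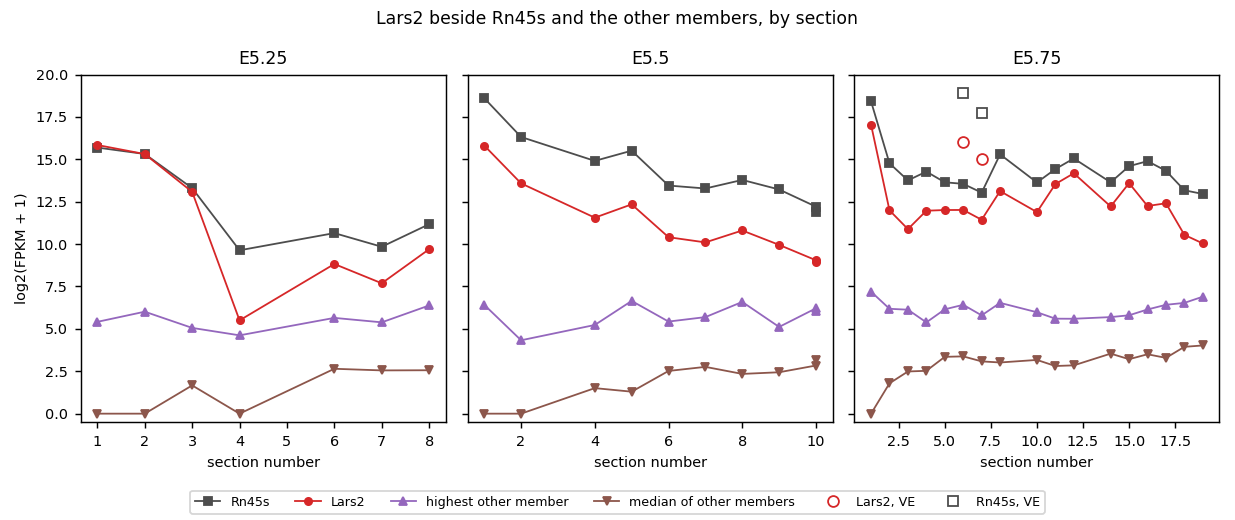
Lars2 (red circles), Rn45s (grey squares), the highest other member (purple) and the median of the other members (brown) in log2(FPKM + 1) against section number, with the VE libraries of E5.75 as open symbols. Lars2 and Rn45s start high in section 1 and move together, and the median of the other members starts at 0 in section 1 of all 3 stages.

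The 10 named genes most like Lars2, by the mean over stages of Pearson's r across sections among the 5926 named genes tested at all 3 stages, were Rn45s (mean r 0.96), Grk1 (0.91), Olfr856-ps1 (0.89), H2-Q4 (0.88), Prpf4b (0.86), Ifnar1 (0.85), Zfp488 (0.85), Cdk5rap2 (0.84), Rbm25 (0.83) and Abcd4 (0.83). None is a synthetase. Among the other members the mean r with Lars2 ran from -0.76 for Tars to 0.35 for Vars, with a median of -0.49 beside -0.34 over all genes. The 3′ untranslated part of the Lars2 transcript, which begins at base 2909 of 3894, holds, among other shared stretches of at least 60 bases, one of 72 bases (3278 to 3349) that is 98.6% identical to the gene model Gm15564 and one of 196 aligned columns (3163 to 3349) that is 80.1% identical to AA474408, by BLAST against the GENCODE M21 transcripts. Neither of these 2 models has a row in the tables, and how fragments from such shared stretches were assigned is not given in the sources used here, so the Lars2 level is uncertain to that extent.

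The scaffolds were among the members with the largest rises. Eef1e1, which anchors enzymes in the complex, was listed at 0 in sections 1 to 4 of E5.25 and reached 5.65, 5.16 and 6.38 in sections 6, 7 and 8. The low and high sections did not overlap. The number of genes detected split in the same way, at 2046 to 4282 in sections 1 to 4 and 5636 to 6461 in sections 6 to 8. So did the summed FPKM of the extraembryonic ectoderm list, at 0 to 10.9 and 135.6 to 144.8. How many of all genes split between these sections was not counted. Eef1e1 rose by 7.54 ± 1.61 on the log2 scale (limma, adjusted p = 0.0442), the 1 member that rose at E5.25, where 0.378% of all genes tested rose. Eef1e1 entered the E5.25 test only through the 3 sections where it was high, so that call describes the values and is no support for a rise. It ended without section 6 or without section 7 (limma, adjusted p at most 0.0625). At E5.5 Eef1e1 was listed at 0 in sections 1 and 2, read 3.56, 0.40, 3.80, 2.80, 3.26 and 3.74 in sections 4 to 9 and was highest in section 10 at 4.60 and 5.30. At E5.75 it was listed at 0 in section 1, had a median of 5.06 and was highest in section 17 at 6.42. It rose at both stages, by 4.504 ± 1.06 (limma, adjusted p = 0.00564) and 4.18 ± 0.77 (limma, adjusted p = 0.000661).

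Aimp1 and Aimp2, the other scaffolds, rose at E5.5. Aimp1 was listed at 0 in sections 1 and 2 of E5.5, read 3.02, 3.80, 3.74, 4.51, 4.38 and 5.07 in sections 4 to 9 and reached 6.17 and 5.32 in section 10. Its rise of 5.76 ± 0.90 (limma, adjusted p = 0.000797) had the smallest adjusted p of the members that rose at that stage. Aimp2, with 0 in section 1, 2.20 in section 2 and 1.77 to 4.83 from section 4 on, rose by 4.23 ± 0.98 (limma, adjusted p = 0.00529). At E5.75 the changes were 2.01 ± 0.87 for Aimp1 and 2.29 ± 0.86 for Aimp2, and neither passed (limma, adjusted p = 0.0996 and 0.0596). Both were listed at 0 in section 1 of E5.75 and lay between 2.16 and 5.76 in the other 16 sections. The 3 scaffolds varied together across sections, with a median pairwise r of 0.78, 0.81 and 0.74 at the 3 stages, beside 0.22, 0.23 and 0.11 for pairs of all genes tested.

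At E5.5, 19 of the 36 members tested rose and 1 fell, beside 28.3% of all genes that rose, and the median fitted change was 2.25 for members and 1.22 for all genes. The 19 were 12 of 19 cytosolic enzymes, 4 of 14 tested mitochondrial enzymes and all 3 scaffolds. Fars2, Mars2 and Wars2 were too low to be tested. Markers of other tissue moved along the same sections: 4 of 9 extraembryonic ectoderm and 4 of 6 tested ectoplacental cone markers rose, 2 of 5 decidua markers rose and 1 fell, and no epiblast marker of 9 passed by limma. The summed FPKM of the ectoplacental cone list was 4.73 to 15.8 in sections 1 to 5, 56.0 to 113.8 in sections 6 to 9 and 336.9 and 399.8 in section 10, and its part in the rises was not tested. Within the multisynthetase complex 8 of 11 members rose, with a median change of 3.84. The rises rested on few sections: without section 1 the number that rose was 12, and without sections 1 and 2 it was 2 (Aimp1 and Hars). Over all genes the number that rose went from 2332 of 8251 to 288 of 7755 without sections 1 and 2, so the loss was not particular to the members. Aimp1, Eef1e1, Qars, Gars, Kars, Tars, Farsa, Farsb and Yars reached an FPKM of 1 only from section 4 on. The filter thus admitted them only through those sections. Apart from Aimp1, which also passed without sections 1 and 2, their calls describe the values and are no support for a rise. Eprs, Farsa, Iars2, Kars, Nars, Rars2, Tars and Tars2 no longer passed without section 1, and Hars no longer passed without any one of sections 2, 8, 9 and 10.

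Of the complex enzymes, Qars for glutamine was low in the lowest-numbered sections of E5.5. It was listed at 0 in sections 1 and 2, read 1.40 and 1.74 in sections 4 and 5 and lay between 3.22 and 4.31 from section 6 on. The 4 lowest-numbered sections did not overlap the others, and the rise was 4.55 ± 0.87 (limma, adjusted p = 0.00198). Rars and Iars split in the same way. So did the number of genes detected, at 2288 to 4954 in those sections and 5950 to 6467 in the others. How many of all genes split between sections was not counted, here or for other members. Rars, the arginine enzyme, climbed from 0 and 1.17 through 1.53, 3.12, 3.45, 3.45, 3.72 and 4.27 to 4.77 and 4.16, a rise of 4.32 ± 0.81 (limma, adjusted p = 0.00172). Eprs, the joined glutamate and proline enzyme, had the highest mean of the cytosolic members at E5.5, with 1.92 in section 1, 4.33 in section 2 and 3.95 to 6.65 beyond. It rose by 3.27 ± 1.08 (limma, adjusted p = 0.0305), and that call ended without section 8 or 10 as well as without section 1. Kars for lysine (3.84 ± 1.16, limma, adjusted p = 0.0209) and Iars for isoleucine (3.15 ± 0.84, limma, adjusted p = 0.0109) rose as well, whereas Dars for aspartate (1.95 ± 1.03), Mars for methionine (0.45 ± 0.95) and Lars for leucine (0.34 ± 1.35) did not pass.

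Among enzymes outside the complex, Gars for glycine rose by 4.55 ± 0.89 at E5.5 (limma, adjusted p = 0.00217). It was listed at 0 in sections 1 and 2, read 2.52 in section 4 and 2.99 in section 5, lay between 3.29 and 4.09 in sections 6 to 9 and reached 4.07 and 4.83 in section 10, so sections 1 and 2 lay below all the rest. Both subunits of the phenylalanine enzyme were listed at 0 in those same 2 sections and rose, Farsa by 3.49 ± 0.99 (limma, adjusted p = 0.0153) and Farsb by 3.505 ± 0.79 (limma, adjusted p = 0.00464). Farsa and Farsb had an r of 0.66, 0.89 and 0.85 with each other across the sections of the 3 stages, beside a median of 0.22, 0.23 and 0.11 for pairs of all genes tested. Both were listed at 0 in sections 1 and 2 of E5.5 and of E5.75, and the part of detection in these r values was not tested. Nars for asparagine (3.76 ± 1.11), Yars for tyrosine (3.39 ± 0.80), Hars for histidine (2.79 ± 0.92) and Tars for threonine (2.63 ± 0.88) completed the cytosolic risers (limma, adjusted p = 0.0186, 0.00584, 0.0319 and 0.0327). Sars for serine, Cars for cysteine and Vars for valine had negative changes of -1.50, -0.78 and -0.32 that did not pass, and Sars was highest in section 1, at 6.42, beside 2.21 to 3.60 elsewhere.

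Of the mitochondrial enzymes, Yars2 for tyrosine, Iars2 for isoleucine, Tars2 for threonine and Rars2 for arginine rose at E5.5. Yars2 was listed at 0 in sections 1 and 2, read 0.79, 1.11, 3.23, 1.69, 1.85 and 3.64 in sections 4 to 9 and 3.22 and 3.77 in section 10, and rose by 3.71 ± 0.83 (limma, adjusted p = 0.00425). Iars2 rose by 2.66 ± 0.86, Tars2 by 2.54 ± 0.80 and Rars2 by 1.85 ± 0.66 (limma, adjusted p = 0.0282, 0.0246 and 0.0428), and all 3 were listed at 0 in sections 1 and 2. Iars2 reached an FPKM of 1 only from section 6 on, Yars2 and Rars2 only from section 5 on, and Tars2 only from section 4 on. These 4 enzymes thus entered the test only through sections where they were high, and their calls are no support for a rise. The Rars2 call ended without any one of sections 1, 2, 8, 9 and 10. The other 9 tested mitochondrial enzymes besides Lars2 had changes from -0.08 for Pars2 to 1.68 for Sars2, the serine enzyme, and did not pass.

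**Figure D3:**
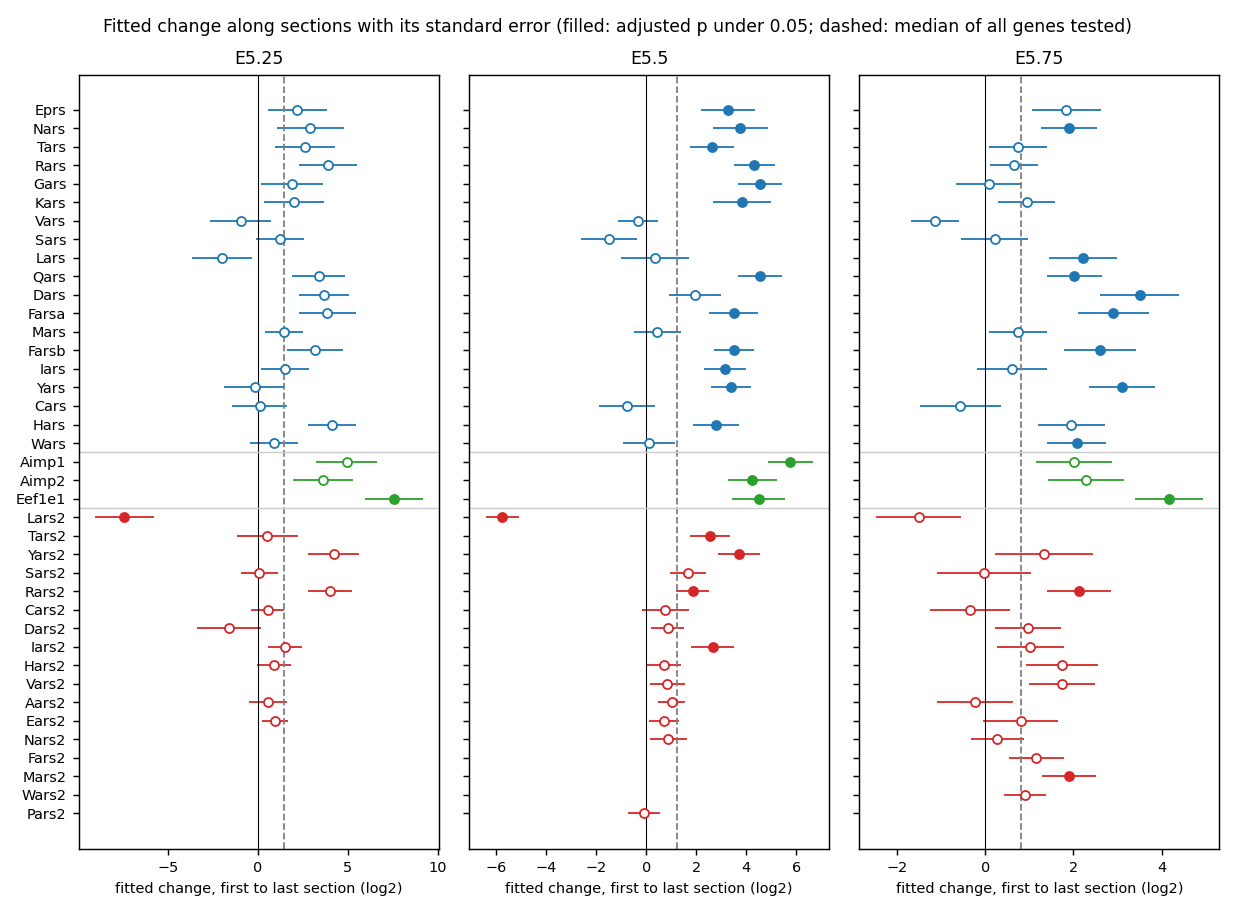
Fitted change from the first to the last section with its standard error, on the log2 scale, for each tested member, with 1 panel per stage. Colour gives the class (blue cytosolic, green scaffold, red mitochondrial), filled points passed at an adjusted p of 0.05, and the dashed line is the median of all genes tested (1.45, 1.22 and 0.80). Lars2 lies apart on the left at E5.25 and E5.5.

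At E5.25, with 7 sections, 33 members were tested and only Eef1e1 and Lars2 passed (Mars2, Vars2 and Wars2 were too low to be tested). The median change was 1.51 for members and 1.45 for all genes. An unadjusted limma p under 0.05 was found for 11 of the 33 members, beside 2493 of all 7148 genes tested. The largest changes after Eef1e1 were 4.94 ± 1.69 for Aimp1, 4.23 ± 1.41 for Yars2, 4.12 ± 1.31 for Hars and 4.01 ± 1.24 for Rars2 (limma, adjusted p = 0.0667, 0.0644, 0.0624 and 0.0615). Sections 1, 2 and 4 held few members: 12, 13 and 13 reached an FPKM of 1 there, against 23 in section 3 and 29 to 32 in sections 6 to 8, and section 4 had the fewest genes detected, 2046. Nars, the cytosolic member with the highest mean at E5.25, read 1.14, 2.96, 5.06, 0, 4.96, 5.39 and 3.93 over the 7 sections, with its lowest value in that section 4.

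At E5.75, 11 of the 37 members tested rose and none fell, beside 18.9% of all genes that rose and 2.07% that fell, with a median change of 1.16 for members and 0.80 for all genes. No member fell by limma, and Vars was the 1 member with a negative change at an unadjusted p under 0.05 (-1.14 ± 0.55, p = 0.0471; limma, adjusted p = 0.135). The risers were 8 cytosolic enzymes (Dars, Yars, Farsa, Farsb, Lars, Wars, Qars and Nars), the mitochondrial Rars2 and Mars2, and Eef1e1. Only Pars2 was too low to be tested. The count was 4 without section 1, 7 without section 2 and 4 without section 18. Dars, Yars, Farsa, Farsb and Wars reached an FPKM of 1 only from section 3 on, so the filter admitted them only through those sections. Their calls describe the values and are no support for a rise on their own.

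Dars, the aspartate enzyme of the complex, was listed at 0 in sections 1 and 2 of E5.75, read 2.32 in section 3 and lay between 3.54 and 5.63 in the other 14, with a median of 4.43. It rose by 3.5004 ± 0.89 (limma, adjusted p = 0.00808), and sections 1 to 3 lay below all the rest. Yars was listed at 0 in sections 1 and 2, with a median of 2.79 and its highest level, 5.09, in section 19, and rose by 3.10 ± 0.75 (limma, adjusted p = 0.006). Farsa and Farsb were again listed at 0 in sections 1 and 2 and lay between 2.21 and 4.76 beyond. They rose by 2.90 ± 0.81 and 2.60 ± 0.82 (limma, adjusted p = 0.014 and 0.0273), and both calls ended without section 1.

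Nars rose by 1.90 ± 0.63 at E5.75 (limma, adjusted p = 0.0351), from 2.41 in section 1 through a median of 5.24 to 6.53 and 6.90 in sections 18 and 19. Qars rose by 2.02 ± 0.63 (limma, adjusted p = 0.0256), Wars for tryptophan by 2.07 ± 0.67 (limma, adjusted p = 0.0315) and Lars by 2.22 ± 0.77 (limma, adjusted p = 0.043). Lars, the cytosolic partner of Lars2 in charging leucine, was listed at 0 in section 1 and highest in section 19 at 5.41. Rars2 (2.13 ± 0.73) and Mars2, the methionine enzyme of mitochondria (1.90 ± 0.62), passed narrowly (limma, adjusted p = 0.0395 and 0.031). Mars2 reached an FPKM of 1 in 5 sections, all from section 10 on, and Rars2 only from section 5 on. Both therefore entered the test only through sections where they were high, and their calls are no support for a rise. The calls of Lars and Rars2 ended without any one of several sections, among them 1, 18 and 19. Tars, which had the highest mean of the cytosolic enzymes at E5.75, was between 3.87 and 6.53 with a change of 0.73 ± 0.66, and Rars, next but one, between 3.97 and 6.03 with 0.65 ± 0.54, and neither passed.

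Whether a member changed more at one stage than at another was tested on slopes, for the 32 members tested at every stage. No member was called by limma in any of the 3 contrasts, with 1, 6 and 5 members at an unadjusted p under 0.05 for E5.5 minus E5.25, E5.75 minus E5.5 and E5.75 minus E5.25. Over all genes 0% rose and 0% fell in the first contrast, 0.125% and 0.439% in the second, and 0.094% and 0.0627% in the third. The lowest adjusted p was that of Rars for E5.75 minus E5.5, a difference of -3.67 ± 1.06 (limma, adjusted p = 0.0895), followed by Gars with -4.47 ± 1.34 (limma, adjusted p = 0.106). Members that passed at one stage only are thus not shown to differ between stages.

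Cytosolic enzymes were compared with mitochondrial ones first by fitted change. The median change of cytosolic members was 2.01, 3.15 and 1.84 over the 3 stages in order of age, and that of mitochondrial members 0.57, 0.87 and 0.96. The cytosolic median was the higher at each stage, by 1.44, 2.28 and 0.87 on the log2 scale, and by 1.28, 2.27 and 0.85 with Lars2 left out of the mitochondrial side. At E5.75 the order turned with a pseudocount of 0.1, to -0.43, and the gap was 0.22 without section 19. At E5.25 it was 0.23 without section 8. These changes are on the log2(FPKM + 1) scale, which understates the change of low genes, and most mitochondrial enzymes were low.

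Levels separated the compartments as well. The median level of cytosolic members ranged over sections from 0.89 to 3.68 at E5.25, from 0 to 3.34 at E5.5 and from 2.41 to 5.01 at E5.75. For the mitochondrial members other than Lars2 it ranged from 0 to 1.57, from 0 to 1.40 and from 0 to 2.21. In section 18 of E5.75, the section with the most members detected, all 19 cytosolic and 14 of 16 mitochondrial members, Lars2 included, reached an FPKM of 1, while in section 1 it was 11 and 3. In section 19, where the cytosolic median was highest at 5.01, the mitochondrial median without Lars2 was 0.31.

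**Figure D4:**
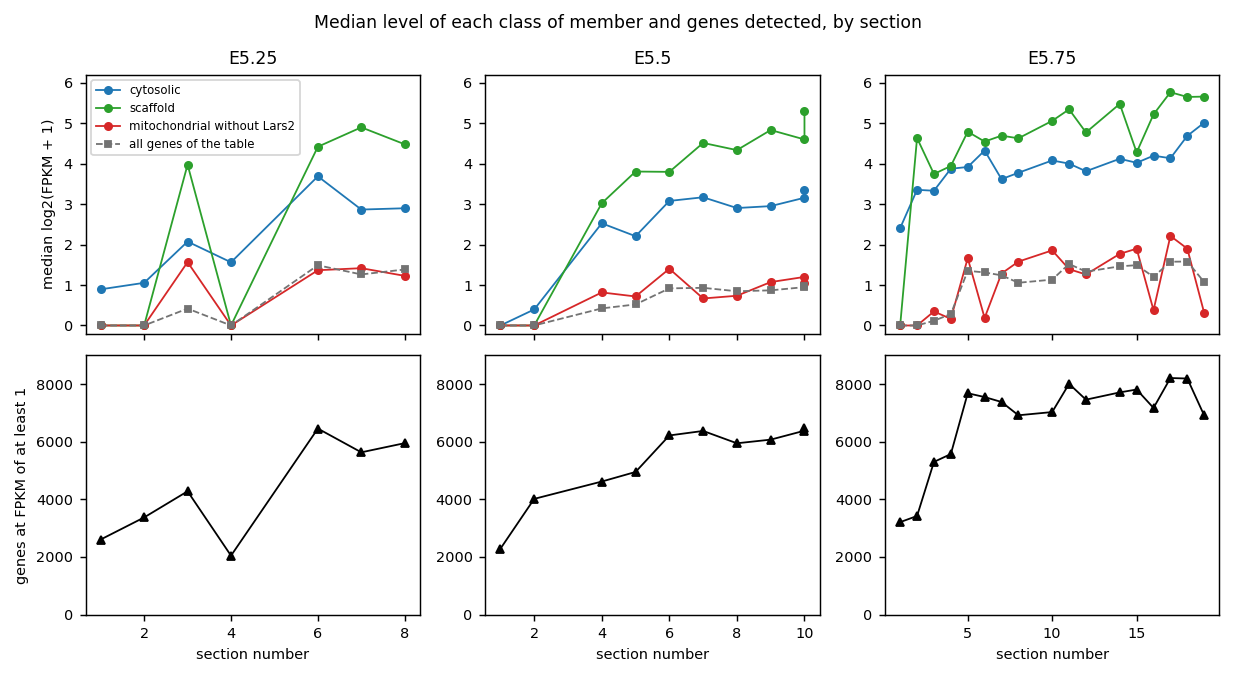
Upper panels, median level of cytosolic (blue), scaffold (green) and mitochondrial members without Lars2 (red) and of all genes of the table (grey) against section number, in log2(FPKM + 1). Lower panels, genes detected at an FPKM of at least 1. Cytosolic medians are above the median of all genes in most sections, and the mitochondrial median lies between 0 and 2.21.

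The number of genes detected moved with these medians. Across sections Pearson's r between the median of the members other than Lars2 and the number of detected genes was 0.96 at E5.25 (n = 7), 0.94 at E5.5 (n = 9) and 0.84 at E5.75 (n = 17). Both values of a point come from the same section, and the sections of a stage are taken as 1 embryo. Once detected genes entered the fit as a covariate, no member passed by limma at any stage, and the median change of members became 0.14, 0.94 and 0.57. Nor did any other gene pass at E5.25 or E5.5, while 405 of 11149 rose and 219 fell at E5.75. The median over all genes became 0.29, 0.40 and 0.14. Section number and detected genes were themselves related, with an r of 0.80, 0.90 and 0.71, so a change along the axis and a change with detection cannot be told apart for most members.

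Pairs of enzymes for the same amino acid showed the difference in level between compartments gene by gene. The cytosolic enzyme had the higher mean over sections in 10 of 12 pairs at E5.25, 11 of 13 at E5.5 and 11 of 12 at E5.75, with a median difference of 0.79, 1.70 and 1.95 on the log2 scale. Nars exceeded Nars2 in 8 of 9 sections of E5.5 and in all 17 of E5.75, by 4.68 ± 1.09 at E5.75 (SD over 17 sections). Rars, Mars and Vars likewise exceeded their mitochondrial partners in all 17 sections of E5.75. The pair of tyrosine enzymes was close: Yars minus Yars2 was 0.46 ± 2.39, -0.10 ± 0.99 and 0.56 ± 1.46 (SD over 7, 9 and 17 sections), less than its spread at each stage. Leucine was the exception, with Lars2 above Lars in all 33 sections, and the level of Lars minus that of Lars2 averaged -8.13, -9.22 and -8.90.

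**Figure D5:**
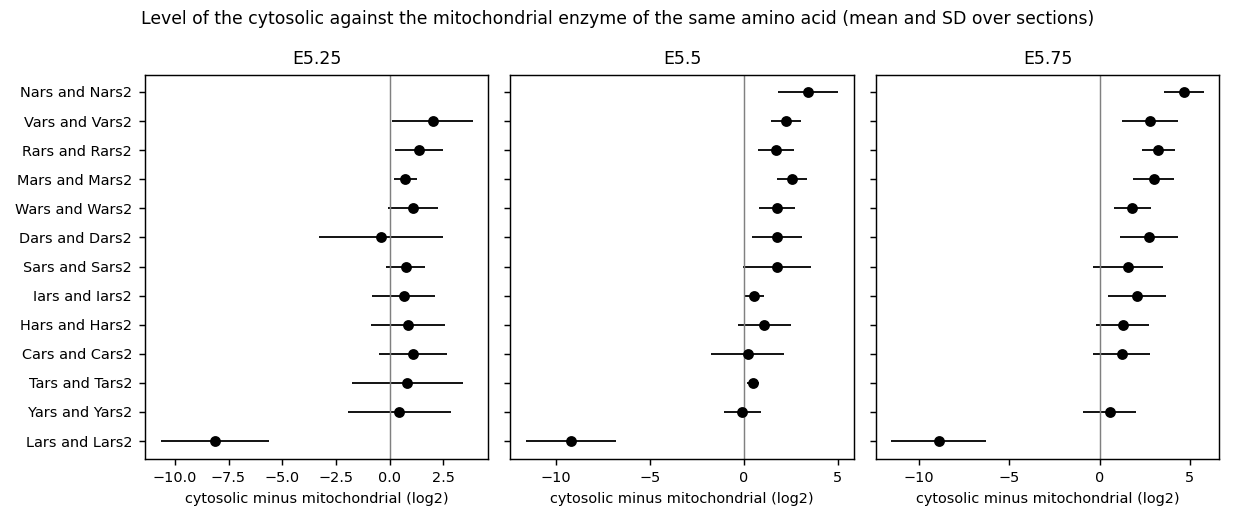
Level of the cytosolic minus the mitochondrial enzyme of the same amino acid, mean over sections with SD, on the log2 scale, for E5.25 (12 pairs), E5.5 (13) and E5.75 (12). All pairs but Lars and Lars2 lie between -0.39 and 4.68, and Lars and Lars2 lie between -9.22 and -8.13.

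Of the 19 cytosolic members, Tars, Nars and Rars had the highest means at E5.75, Eprs, Nars and Sars at E5.5, and Nars, Eprs and Tars at E5.25. Neighbours in this order differed by less than their spread over sections: at E5.25 the means of Nars, Eprs and Tars were 3.35, 3.19 and 3.11 with an SD of 2.09, 1.16 and 1.43. Below Lars2, the highest mitochondrial means were those of Tars2 and Yars2 at E5.25 (2.28 and 2.05), Yars2 and Tars2 at E5.5 (both 1.76) and Sars2 and Yars2 at E5.75 (2.49 and 2.02). Members of the multisynthetase complex varied together more than pairs of all genes, with a median pairwise r of 0.63, 0.61 and 0.40, and the same held for cytosolic members as a whole at 0.33, 0.36 and 0.29. Mitochondrial members without Lars2 had 0.24, 0.40 and 0.12, and these values describe sections that are taken as 1 embryo and differ in detection.

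The VE libraries of sections 6 and 7 of E5.75 were compared with the other library of the same 2 sections. Lars2 was 15.99 and 15.01 in VE and 12.01 and 11.44 in the others, without overlap, and was higher in VE by 3.77 ± 0.46 (2 against 2 libraries, limma, adjusted p = 0.00948). With quantile normalization the difference was 0.996 and did not pass (limma, adjusted p = 0.337). It was the 1 member called higher, where 0.624% of all genes were, and Rn45s was 18.89 and 17.75 in VE against 13.55 and 13.03. A further 14 of the 29 members tested were lower, where 56.6% of all genes were. Eef1e1, Dars, Aimp2, Farsb, Farsa and Yars were listed at 0 in both VE libraries and at 2.95 to 5.67 in the others. Such members passed the filter only through the libraries where they were high, so the count describes them and is no support for a difference.

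The VE libraries were poor in genes. They held 1496 and 2147 genes at an FPKM of at least 1, and 20 of the 38 members were listed at 0 in both. Single members stood high in 1 of the 2, such as Cars at 7.92 in VE section 6 and 0 in VE section 7, and Hars at 0 and 7.87. Rars was 2.84 and 8.10 and Nars 4.17 and 7.39, so the 2 libraries disagreed on them and no difference passed. The summed FPKM of the 10 visceral endoderm markers was 269.8 and 1066.2 in VE and 51.1 and 41.1 in the others, but Amn, Afp, Apoa4, Ttr, Sox17 and Foxa2 were listed at 0 in VE section 6 and Afp and Foxa2 in VE section 7. Epiblast markers summed to 207.7 and 272.4 in VE, with 2 and 6 of 9 detected, and blood markers to 4271 and 4.54. Without either of the other libraries of sections 6 and 7 no member was called lower by limma, and without VE section 7 the count was 25.

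The genes around tRNA charging were counted from lists of related pathways. Of the partners and proofreaders of charging, 5 of 10 tested rose at E5.5 and 3 of 10 at E5.75, with none at E5.25. Yrdc, which makes a threonine-based modification of tRNAs, rose by 3.52 ± 0.94 at E5.5 and 4.53 ± 0.81 at E5.75 (limma, adjusted p = 0.0114 and 0.000492). Of the genes of tRNA processing and modification, 12 of 38 rose at E5.5 and 12 of 40 at E5.75. Rpp38 and Rpp21, subunits of the ribonuclease that trims precursor tRNAs, rose by 4.23 ± 0.87 and 6.11 ± 1.30 at E5.5 (limma, adjusted p = 0.00277 and 0.00341), and Tsen15 and Tsen34 of the tRNA splicing endonuclease by 4.38 ± 0.77 and 4.20 ± 0.86 at E5.75 (limma, adjusted p = 0.00041 and 0.00157).

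Elongation factors, which carry charged tRNAs to the ribosome, rose in 7 of 11 cases at E5.5 and 1 of 11 at E5.75. Eef1b2 rose by 5.71 ± 1.10 and Eef1a1 by 4.59 ± 0.97 at E5.5 (limma, adjusted p = 0.00205 and 0.00332), and the 1 at E5.75 was Gfm1 of mitochondria (2.48 ± 0.85, limma, adjusted p = 0.04). In the list of the mitochondrial ribosome, 14 of 24 rose at E5.5 and 10 of 26 at E5.75, among them Mrpl42 by 7.35 ± 1.31 and 5.95 ± 1.24 (limma, adjusted p = 0.00132 and 0.00193). The nucleolar list held 3 of 15 risers at E5.5 and 1 of 15 at E5.75, led by Fbl, which modifies ribosomal RNA (6.36 ± 0.97, limma, adjusted p = 0.000769). No gene of these 5 lists fell or rose at E5.25 by limma.

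Of the Atf4 pathway, which responds to scarce amino acids, 10 of 18 tested genes rose at E5.5 and 14 of 26 at E5.75, with medians of 2.56 and 1.93, and none fell. Asns, which makes asparagine, rose by 5.89 ± 1.01 at E5.5 (limma, adjusted p = 0.00109). Psat1 and Phgdh of serine synthesis rose at E5.75 by 4.72 ± 0.81 and 4.61 ± 0.78 (limma, adjusted p = 0.000365 and 0.000329), and Slc7a1, a transporter of arginine and lysine, by 3.27 ± 0.57 (limma, adjusted p = 0.000385). The shares of all genes that rose, 28.3% and 18.9%, are the background for each of these counts.

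Promoters were examined because many cytosolic members rose together at E5.5. RefSeq promoters on mm10, from 250 bases before to 50 after the start, were found for 29 of the 39 members. The core of the amino acid response element, TGATGNAA on either strand, was in 4 of these 29 (13.8%), beside 3.97% of all 32851 promoters. The 4 were Gars, Iars, Tars and Yars, all cytosolic, and none of the 14 mitochondrial or 3 scaffold promoters held it. The E-box CACGTG, a palindrome whose matches overlapped none of the core, was in Farsb, Iars, Tars and Ears2, also 13.8% beside 7.15% of all promoters. For both motifs the share of members counts genes, while the background counts promoters, 32851 for 27025 gene symbols. The shares are thus not in the same unit. The 4 matches to the core are shown in capitals within 30 bases on the strand of the gene, because all 4 lie in cytosolic members that rose at E5.5. A match is a description of the letters and not a site shown to be bound.
Gars (chr6:55037960-55037989, + strand): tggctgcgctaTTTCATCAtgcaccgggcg
Iars (chr13:49682126-49682155, + strand): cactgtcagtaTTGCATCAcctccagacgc
Tars (chr15:11399655-11399684, - strand): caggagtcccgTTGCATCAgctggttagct
Yars (chr4:129189895-129189924, + strand): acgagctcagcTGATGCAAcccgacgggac

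For Gars and Farsb, 1 promoter with each motif, the 100 bases before the start overlapped no annotated exon and give the wider context, with the motif in capitals.
Gars, response element core (chr6:55037901-55038000, + strand): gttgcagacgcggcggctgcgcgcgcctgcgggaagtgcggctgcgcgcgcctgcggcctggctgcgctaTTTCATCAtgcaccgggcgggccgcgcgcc
Farsb, E-box (chr1:78488898-78488997, - strand): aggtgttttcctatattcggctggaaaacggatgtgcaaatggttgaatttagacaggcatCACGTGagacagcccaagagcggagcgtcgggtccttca

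The changes of members with and without the response element core are set side by side with no test. At E5.5 all 4 with it rose, with a median change of 3.27, beside 5 of 8 cytosolic members with a promoter but no core, with a median of 3.38. At E5.75 1 of 4 rose (Yars), with a median of 0.66, beside 4 of 8 with a median of 1.93. For the joined row of Aars and Exosc6, which mixes 2 genes, the change was -1.55, 3.08 and -0.02 at the 3 stages, of which the second passed (limma, adjusted p = 0.0119).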

How the data were processed

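Smart-seq2 libraries of microdissected mouse embryo sections were aligned to mm10, with TopHat2 2.0.4 and Cufflinks 2.0.2 named per the submitters' processing notes. The annotation and the normalization are not given in the sources used here. The authors deposited 1 table per stage of normalized FPKM on a log2 scale. The values were read as log2(FPKM + 1), which rests on the table names and the values. At E5.5 the deposited columns of sections 2 to 9 join parts A and B in a way that is not stated. The columns of the section 10 parts were averaged, and the label of part B conflicts, since its title gives section 10 and its source name section 11. The tables hold no counts, so depth and its precision are unknown.

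A gene entered a fit when 2 or more of its samples reached an FPKM of 1, and limma 3.58.1 was run in R 4.3.3 with trended eBayes and 2-sided tests, Benjamini-Hochberg adjusted over all genes tested, threshold 0.05. Fold changes are on the log2(FPKM + 1) scale. Each stage was fitted alone with a line in section number scaled from 0 to 1, VE left out. Slopes were compared in 1 fit with a slope and an intercept per stage, and VE with the other libraries of sections 6 and 7 without a block. The numbers are positions, and the correlation of same-numbered samples' deviations, 0.000773 over 2 pairs, does not settle whether they pair. Fits were tested on simulated data. Correlations are descriptions. Promoters are RefSeq's (mm10), loci from the RefSeq gene table of that build, and shared transcript stretches of at least 60 bases from BLAST 2.17.0. Alternatives were pseudocounts of 0.1 and 5, other filters, scalings and variance models, detected genes or Rn45s as a covariate, a spline, other section choices and leaving out each section.

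The members and lists were chosen with earlier results of these data known. Named were Lars2, each member that passed, the leading members of each class by mean level, up to 3 genes of smallest p per list and stage, and the 10 genes most like Lars2. Other members are named to account for all, and were chosen after their values were seen.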

Additional observations from a re-analysis of the deposited data

Results flagged for a closer look

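Over the 7 sections of E5.25, 2 of 28 values looked at had 1 section far from the others. Tars, the threonine enzyme, was listed at 0 in section 1 and read 3.05 to 4.14 in the other 6, a gap of 0.738 of its whole range. Gars, the glycine enzyme, was listed at 0 in the same section and read 2.36 to 4.12 elsewhere, a gap of 0.572 of its range. Chance flags about 1 in 20 such groups. Section 1 of E5.25 held 2607 genes at an FPKM of at least 1, and the part of detection in both values was not tested. No difference of slopes between stages passed for any of the 32 members by limma.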

How the results depend on the processing

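Direction held for most results, but the calls depend on the low-numbered sections and on how detection is treated. Over 834 alternatives for 31 single-gene results, Lars2 not among them, 604 kept direction and side of the threshold. A further 224 kept direction only and 6 reversed, and the cause was not tested. All 31 were calls that had passed in the main fits, so none could gain a call. Many of the alternatives left out only 1 section and so share most of their values with the main fit. Those 6 reversals were at E5.5: with detected genes as a covariate Eprs became -0.029 and Nars -1.90, and with the Rn45s covariate Farsa became -0.997, Kars -1.24, Nars -3.17 and Tars -0.70. Lars2 also reversed, with the Rn45s covariate at each of the 3 stages and in the slope differences given with E5.75. Quantile normalization moved the median change of all genes from 1.45 to 0.38, 1.22 to 0.44 and 0.80 to 0.16 at the 3 stages. It moved the all-gene split from 2332 higher and 215 lower to 844 and 324 at E5.5, and from 2108 and 231 to 845 and 500 at E5.75. Depth is unknown and cannot be set against these values.

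At E5.25, where 1 member rose and 1 fell, the number that rose was 5 with a pseudocount of 0.1 or a filter at 5, 3 without trend, and 0 with a pseudocount of 5, no filter, quantile normalization, robust eBayes, either covariate, the spline or a common sum without Rn45s and Lars2 (an alternative chosen after seeing the data, as was leaving Lars2 out of the mitochondrial side). Over all genes, 934 of 7148 rose with a pseudocount of 0.1, 763 of 3540 with a filter at 5 and 483 of 7148 without trend. In the settings where no member rose, at most 1 gene of all rose. The number of members that fell was 0 with a pseudocount of 5, no filter, quantile normalization, eBayes without trend or robust, either covariate, the spline, that common sum, and without sections 1 and 2. Of all genes 31 fell without trend and at most 1 in each of the others. The change of Lars2 there was -7.42 with a pseudocount of 5, -7.43 with no filter, without trend or robust, -4.47 with quantile normalization, -14.09 with detected genes, 2.35 with Rn45s, -1.52 without sections 1 and 2, -7.01 with the spline and -7.99 with that common sum, none past the threshold. Leaving out 1 section gave 0 to 4 risers, 0 to 1 that fell, and -8.82 to -5.21 for Lars2.

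At E5.5 the 19 risers became 9 with a common sum without Rn45s, 8 with quantile normalization or the common sum without Rn45s and Lars2, 2 without sections 1 and 2 and 0 with either covariate, and 12 to 19 when 1 section was left out. Over all genes, the 2332 risers became 1248 with a common sum without Rn45s, 844 with quantile normalization and 1068 with the common sum without Rn45s and Lars2. They became 288 without sections 1 and 2 and 0 with either covariate. The number of members that fell became 0 with either covariate, as it did over all genes, and Lars2 was then -1.81 (detected genes) and 0.028 (Rn45s). The cytosolic minus mitochondrial median moved from 2.28 to 1.14 with a pseudocount of 5, 1.12 and 1.39 with detected genes and Rn45s, 0.96 without sections 1 and 2, and 9.14 over members with a mean FPKM of at least 5, where Lars2 is the 1 mitochondrial member and the value is no compartment difference.

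At E5.75 the 11 risers became 5 with a common sum, 4 with either reduced common sum, the Rn45s covariate or without sections 1 and 2, 3 with quantile normalization and 0 with detected genes, and 4 to 12 when 1 section was left out. Over all genes, the 2108 risers became 1517 with a common sum, and 1430 and 1368 with the reduced common sums. They became 1307 with the Rn45s covariate, 1033 without sections 1 and 2, 845 with quantile normalization and 405 with detected genes. The number of members that fell became 1 with quantile normalization and with the spline, where Lars2 passed at -4.60, and Lars2 was 0.18 with Rn45s. The cytosolic minus mitochondrial median became -0.43 with a pseudocount of 0.1 and 1.73 with the spline. The Lars2 slope difference between E5.5 and E5.25, 1.67, became -1.07 without sections 1 and 2, and that between E5.75 and E5.5 became -1.24 with Rn45s. For that contrast 1 member was called lower with a filter at 5.

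In the VE comparison quantile normalization left 0 members called higher and 0 lower, with Lars2 at 0.996. Leaving out 1 library gave 1 to 6 higher and 0 to 25 lower, where the lone library is assumed to vary like the rest. With section number as a replicate block the counts were 1 higher and 14 lower and Lars2 was 3.77 (limma, adjusted p = 0.0216), so the block changed no call.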
